A study of Mus musculus with 6 samples.

Results

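The RANKL axis is a signalling route of the tumour necrosis factor family, and 8 of its genes and partner genes were followed here in ovarian tumours of mice given RU486 or a placebo. The genes were chosen by symbol: those of the ligand RANKL (Tnfsf11), its receptor RANK (Tnfrsf11a), its decoy receptor OPG (Tnfrsf11b) and the adaptor TRAF6 (Traf6), and 4 partners of progesterone signalling in the mammary gland (Elf5, Stat5a, Stat5b and Id4). All 8 were measured, through 10 of the 37932 probes of the array, and they are 8 of the 21874 genes that the platform annotation names. Stat5a, Stat5b, Tnfsf11, Tnfrsf11a, Tnfrsf11b, Elf5 and Id4 had 1 probe each, and Traf6 had 3.

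RU486, also called mifepristone, is a synthetic steroid antagonist of both the progesterone and the glucocorticoid receptor. The 3 RU486 tumours came from mice that carried a slow-release RU486 pellet for 24 h, and the 3 placebo tumours from mice that carried a placebo pellet for the same time. Tumours of both groups measured between 0.5 and 1 cm across. Mice of both groups carried the same alleles, given as Pgrcre/+mPgrLsL/+ on the samples and as Pgrcre/+PgrBLsL/+ for the series, so that Cre made from the Pgr locus switches on the B form of the progesterone receptor. No tumour without these alleles was analysed here, the age of the mice is not given in the sources used here, and the labels do not say whether each array held a different mouse, so p-values measure the spread between these samples, which may be technical. RNA was labelled with Cy3 and hybridised to 1 array per sample.

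In the mammary gland, progesterone makes hormone-sensing epithelial cells produce RANKL, which binds RANK on neighbouring cells that lack the progesterone receptor and drives their growth. OPG binds RANKL outside the cell and keeps it from RANK, and TRAF6 carries the signal from RANK to NF-kB and MAP kinases. Alveolar cells then depend on ELF5, a transcription factor of the ETS family, and on STAT5A and STAT5B, which prolactin activates, while ID4 is a helix-loop-helix regulator of mammary progenitor cells.

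The values are scores: each probe was centred on 0 and scaled to an SD of 1 over the 6 arrays, so a score of 1 is 1 SD above that probe's own mean. Scores of different probes are not levels and cannot be ranked against each other, and whether a probe shone above background is unknown, so the labelled tissue could not be checked through the presence of its markers. Differences are RU486 mean minus placebo mean, here called standardised differences. With the deposited scores of all 6 arrays weighted alike, they cannot pass 1.83 in size. Alternatives that weight, rescale or leave out arrays are not held to that limit. RU486 array 2 stood apart from the other 2 RU486 arrays: it had the lowest weight when limma weighted the arrays by their fit (0.342, against weights from 0.469 to 4.97 on the other arrays). Its mean scores for the markers of macrophages, of granulosa cells and of osteoblasts and stroma were 1.15, 1.05 and 1.02, the highest of the 6 arrays for each list. Differences of the 8 genes are therefore also given without that array.

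Of the 8 genes, 0 passed an adjusted p of 0.05 in limma's ordinary test over all genes, where 1 of 21874 genes (0.00457%) did. At an unadjusted p of 0.05 there was 1 gene, Tnfsf11, with higher scores in RU486 tumours, where 5.24% of all genes were higher and 7.07% lower at that level (12.3% in both directions), so the share among the 8 was near that of all genes. The groups did not overlap for 3 of the 8, Tnfsf11 and Elf5 with higher and Tnfrsf11b with lower scores in RU486 tumours, beside 22.0% of all genes (11.2% higher and 10.8% lower). In all, 5 of the 8 differences were positive and 3 negative, and their median was 0.30, beside -0.06 over all genes. Adjusted p-values of the 8 ran from 0.353 to 0.918.

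**Figure D1:**
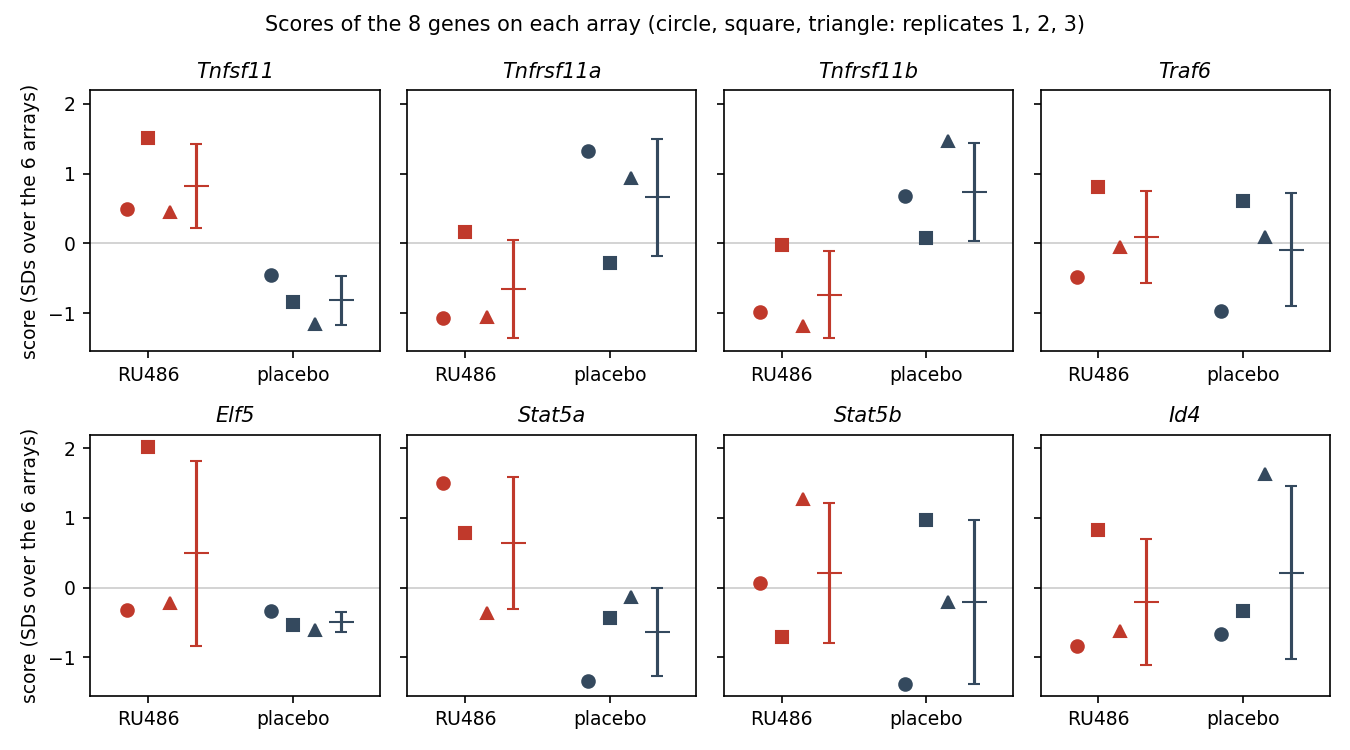
Score of each of the 8 genes on each array (vertical axis, in SDs over the 6 arrays; Traf6 is the mean of 3 probes), with RU486 arrays in red and placebo arrays in blue; bars give the group mean ± SD (n = 3 each). The 3 RU486 arrays lie above the 3 placebo arrays for Tnfsf11 and, by a narrow gap, for Elf5, and below them by a narrow gap for Tnfrsf11b.

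Tnfsf11 (Entrez gene 21943, probe to NM_011613) codes for RANKL, the ligand of the axis. Its scores were 0.493, 1.51 and 0.45 in RU486 tumours 1 to 3, against -0.45, -0.844 and -1.16 in placebo tumours 1 to 3. Every RU486 tumour was above every placebo tumour, the gap between the groups was 0.901, and RU486 tumour 2 was the highest. The means were 0.82 ± 0.602 in RU486 and -0.82 ± 0.356 in placebo tumours (SD, n = 3 each). The standardised difference was 1.64 (SE 0.404, 95% interval 0.52 to 2.76), with an unadjusted p of 0.0154 and an adjusted p of 0.353 in limma. An exact permutation test over the arrays gave a two-sided p of 0.1, the smallest that 3 against 3 arrays allow. Without RU486 array 2 the difference was 1.29, with an unadjusted p of 0.0167 in limma. In limma it did not reach that level without placebo array 2 (1.62, unadjusted p = 0.0525) or placebo array 3 (1.47, unadjusted p = 0.053), nor with the replicate number as a block (1.64, unadjusted p = 0.057).

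The promoter of Tnfsf11 is shown because this gene had the largest difference of the 8. It is 300 bases long, from 250 bases before the annotated start to 50 after it, in RefSeq's mouse assembly GRCm38.p6 at chr14:78307994-78308293 on the minus strand. Capitals mark TATAA, the core of a TATA box, which begins 30 bases before the start and was looked for after the sequence had been seen; 24.9% of the 32851 promoters of the same length hold these letters on either strand.
Tnfsf11: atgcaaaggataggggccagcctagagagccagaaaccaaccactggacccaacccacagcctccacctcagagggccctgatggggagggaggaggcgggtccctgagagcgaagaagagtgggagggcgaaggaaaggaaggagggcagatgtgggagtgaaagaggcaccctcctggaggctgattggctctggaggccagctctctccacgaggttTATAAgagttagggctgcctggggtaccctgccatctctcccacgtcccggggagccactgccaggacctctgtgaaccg
Neither a steroid receptor element (AGAACA followed after 3 bases by its reverse complement, or AGAACA alone on either strand) nor a STAT site (TTCNNNGAA, the same on both strands) was found in this window. RefSeq's table held promoters for 7 of the 8 genes, 10 promoters in all, and 0 of the 10 held any of these motifs, where 0.00913%, 19.0% and 8.30% of all promoters do. An element outside these windows would not be seen.

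Tnfrsf11a (Entrez gene 21934, probe to NM_009399) codes for RANK, the signalling receptor. Scores were -1.07, 0.158 and -1.06 in RU486 tumours 1 to 3, against 1.32, -0.282 and 0.939 in placebo tumours 1 to 3. RU486 tumours 1 and 3 were the lowest, but RU486 tumour 2 was above placebo tumour 2, so the groups overlapped. The difference was -1.32 (SE 0.632, 95% interval -3.07 to 0.44, unadjusted p = 0.106, adjusted p = 0.466 in limma). It stood at -1.73 without RU486 array 2 (unadjusted p = 0.0697) at -1.79 without placebo array 2 (unadjusted p = 0.0465) and at -0.99 without placebo array 1 (unadjusted p = 0.251), and the sign was negative under every alternative run.

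Tnfrsf11b (Entrez gene 18383, probe to NM_008764) codes for OPG, the soluble decoy receptor that holds RANKL off RANK. Scores were -0.988, -0.0266 and -1.19 in RU486 tumours 1 to 3, against 0.677, 0.0699 and 1.46 in placebo tumours 1 to 3. The groups did not overlap, though RU486 tumour 2 and placebo tumour 2 lay only 0.0965 apart. The means were -0.74 ± 0.623 in RU486 and 0.74 ± 0.698 in placebo tumours (SD, n = 3 each). The difference was -1.47 (SE 0.540, 95% interval -2.97 to 0.03, unadjusted p = 0.0526, adjusted p = 0.39 in limma), and the exact permutation p was 0.1. In limma the unadjusted p was under 0.05 without RU486 array 2 (-1.83, unadjusted p = 0.0402), without placebo array 2 (-1.81, unadjusted p = 0.0461), with array medians set equal (-1.35, unadjusted p = 0.0453) and after quantile normalization (-1.47, unadjusted p = 0.048). It was not with the replicate block (-1.47, unadjusted p = 0.187) or without any of the other 4 arrays, the smallest difference being -1.11 without placebo array 3 (unadjusted p = 0.121), and the adjusted p was at least 0.223 under every alternative run.

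At the head of the axis, the difference was positive for the ligand and negative for both receptors, whose unadjusted p-values were above 0.05. Among the 28 pairs of the 8 genes, Tnfrsf11a and Tnfrsf11b had the most alike scores, with a root mean square difference of 0.38 over the 6 arrays. Outside the 8, 78 genes lay within 0.3 of Tnfrsf11a and 137 within 0.3 of Tnfrsf11b, closer than these receptors were to each other. Tnfsf11 and Tnfrsf11b were among the least alike of the 28 pairs, at 1.65. Lymphocytes, stromal cells and osteoblasts can make RANKL or OPG, and macrophages can carry RANK. Mean scores of 8 T cell markers were -0.47, 0.64 and -0.73 in RU486 tumours 1 to 3, against 0.13, 0.09 and 0.33 in placebo tumours 1 to 3. Those of 10 macrophage markers were -0.72, 1.15 and -0.90 in RU486 tumours, against -0.45, 0.17 and 0.73 in placebo tumours, and those of 8 osteoblast and stromal markers were -0.44, 1.02 and -0.32 in RU486 tumours, against -0.63, 0.06 and 0.31 in placebo tumours. For these 3 lists the groups overlapped and RU486 array 2 was the highest. In tumour pieces, fewer cells of a type and less RNA per cell cannot be told apart, and the part of these cell types in the scores of the axis was not tested.

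**Figure D2:**
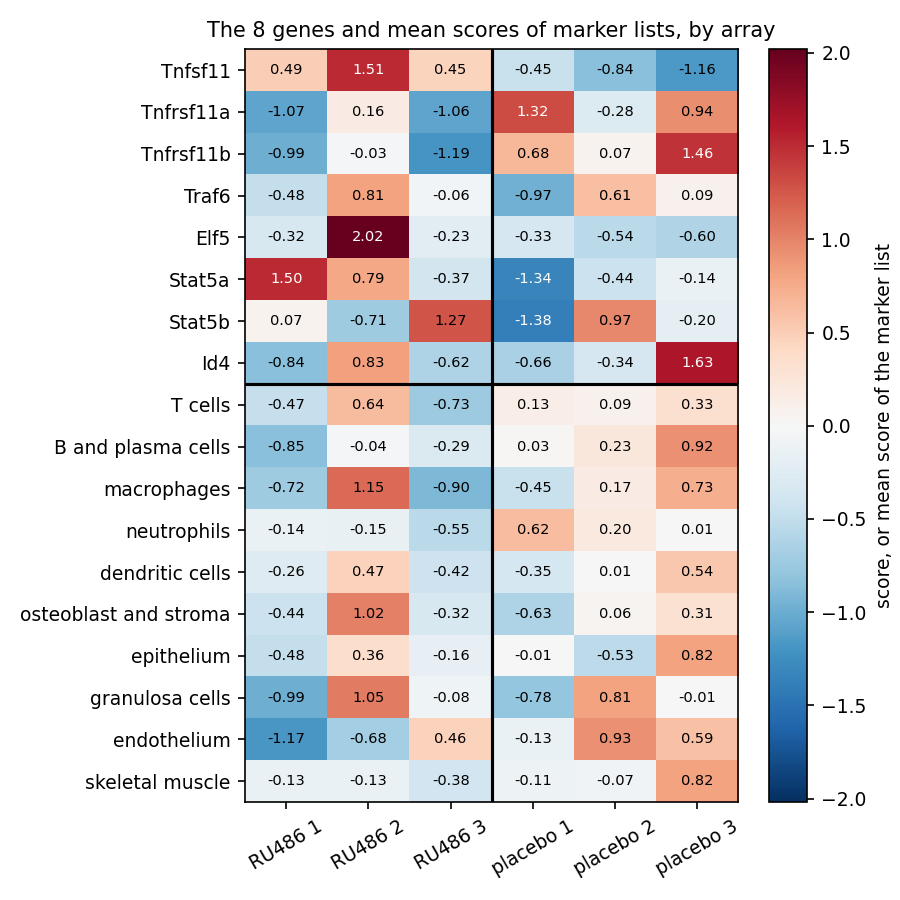
Scores of the 8 genes (upper rows) and mean scores of 10 lists of cell type markers (lower rows) on the 3 RU486 arrays (left) and the 3 placebo arrays (right), from blue (low) to red (high). On RU486 array 2, Elf5 stands at 2.02 and Tnfsf11 at 1.51, and the macrophage, granulosa and stromal marker lists are at 1.15, 1.05 and 1.02.

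Among the marker lists, those of B and plasma cells, of neutrophils and of skeletal muscle separated the groups by their mean scores. For muscle the gap was narrow, between -0.13 and -0.11. Among the lists of genes around the axis, described below, the means of milk genes were higher in every RU486 tumour. Those of the other genes that progesterone induces in mammary epithelium were lower. How often a list separates the groups by its mean was not tested. The 7 B and plasma cell markers averaged -0.85, -0.04 and -0.29 in RU486 tumours 1 to 3, against 0.03, 0.23 and 0.92 in placebo tumours, and 1 of the 7, the B cell receptor gene Cd79a, had an unadjusted p under 0.05 (-1.63, adjusted p = 0.278 in limma). The 8 neutrophil markers averaged -0.14, -0.15 and -0.55 in RU486 tumours, against 0.62, 0.20 and 0.01 in placebo tumours, with S100a8 at -1.57 (adjusted p = 0.39). S100a9 and Retnlg were the other 2 with an unadjusted p under 0.05 in limma, at -1.51 and -1.52. Over all genes, 7.07% were lower at that level. Ly6g and Cxcr2 had positive differences of 0.67 and 0.77. S100a9, Retnlg, Ly6g and Cxcr2 were named after their values were seen. Of these lists, 6 of 7 B and plasma cell, 6 of 8 neutrophil and 6 of 8 muscle markers were lower. So were 6 of 8 T cell and 8 of 10 macrophage markers, where 51.6% of all genes were lower. In the dendritic cell and epithelial lists 4 of 8 markers each were lower. In the osteoblast and stromal list 3 of 8 were lower, and in the granulosa cell list 3 of 7. The 8 muscle markers averaged -0.13, -0.13 and -0.38 in RU486 tumours, against -0.11, -0.07 and 0.82 in placebo tumours, where placebo tumour 3 was the highest. Of these 8 markers, 0 had an unadjusted p under 0.05 in limma. The endothelial list had 8 of 8 markers lower, with Vwf, the von Willebrand factor gene, at -1.5 (SE 0.482, adjusted p = 0.39 in limma), and its mean scores overlapped between groups, as did those of the dendritic, epithelial and granulosa cell lists. Like Tnfrsf11b, the B and plasma cell, neutrophil and muscle lists were lower in RU486 tumours, and their part in its scores was not tested.

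Traf6 (Entrez gene 22034) codes for the adaptor that RANK recruits, and its 3 probes disagreed. The probe to NM_009424 gave -0.718, 1.55 and -0.163 in RU486 tumours 1 to 3, against -1.31, 0.59 and 0.0474 in placebo tumours 1 to 3, a difference of 0.45. The probe to the cDNA clone AK009110 gave -0.126, -1.12 and 0.367 in RU486 tumours, against -1.02, 1.56 and 0.334 in placebo tumours, a difference of -0.59. The probe to the clone AK041172 stood at 2.0 on RU486 array 2 and between -0.609 and -0.103 on the other 5 arrays, a difference of 0.68. On RU486 array 2 one probe was thus the lowest and the other 2 the highest of their 6 scores. The mean of the 3 had a difference of 0.18 (SE 0.603, 95% interval -1.5 to 1.85, adjusted p = 0.918 in limma), and the groups overlapped. It turned negative when arrays were weighted (-0.56) and without either RU486 array 2 (-0.18) or placebo array 1 (-0.26).

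Elf5 (Entrez gene 13711, probe to NM_010125) codes for the ETS factor of alveolar cells. Its score was 2.02 on RU486 array 2, near the largest score in the table, and -0.32 and -0.225 on RU486 arrays 1 and 3, against -0.334, -0.537 and -0.604 on placebo arrays 1 to 3. The groups did not overlap, but RU486 array 1 and placebo array 1 differed by only 0.0139, so the separation rests on a gap far smaller than the spread in either group. The difference was 0.98 (SE 0.769, 95% interval -1.15 to 3.12, unadjusted p = 0.27, adjusted p = 0.679 in limma), and without RU486 array 2 it was 0.22. Of the 28 pairs, Elf5 and Tnfsf11 were the second most alike, with a root mean square difference of 0.547, and both peaked on RU486 array 2. Ehf, another ETS factor gene and the neighbour of Elf5 on chromosome 2, stood at 1.40 on RU486 array 2 as well, at -0.608 and -0.65 on RU486 arrays 1 and 3, and at -0.738, -0.575 and 1.17 on placebo arrays 1 to 3, with a difference of 0.10 (adjusted p = 0.974).

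Stat5a (Entrez gene 20850, probe to NM_011488) and Stat5b (Entrez gene 20851, probe to NM_011489) lie side by side on chromosome 11, next to Stat3, and code for near-identical factors downstream of the prolactin and growth hormone receptors. Scores of Stat5a were 1.5, 0.785 and -0.367 in RU486 tumours 1 to 3, against -1.34, -0.436 and -0.139 in placebo tumours 1 to 3. RU486 tumours 1 and 2 were the highest, and RU486 tumour 3 was below placebo tumour 3, so the groups overlapped. The difference was 1.28 (SE 0.652, 95% interval -0.53 to 3.09, unadjusted p = 0.122, adjusted p = 0.495 in limma), and it was positive under every alternative run. It was 1.20 without RU486 array 2, 0.85 without RU486 array 1 (unadjusted p = 0.273), 0.93 without placebo array 1 and 1.78 without RU486 array 3 (unadjusted p = 0.0451).

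Stat5b scores were 0.0671, -0.714 and 1.27 in RU486 tumours 1 to 3, against -1.38, 0.967 and -0.203 in placebo tumours 1 to 3. The groups overlapped: the highest score was on RU486 array 3, followed by placebo array 2, and the lowest was on placebo array 1. The difference was 0.41 (SE 0.889, 95% interval -2.06 to 2.88, adjusted p = 0.866 in limma), and it was 0.87 without RU486 array 2, -0.15 when arrays were weighted, -0.12 without RU486 array 3 and -0.18 without placebo array 1. Placebo array 1 was the lowest array for both genes, whereas their highest arrays differed, and the pair had a root mean square difference of 1.22. Whether the probe of one gene also binds transcripts of the other was not tested. Stat3, their neighbour, had a difference of 0.34 (adjusted p = 0.876) with overlapping groups.

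Promoter stretches of the 2 genes are shown because the genes sit next to each other and differed in their scores while stretches of an annotated promoter of each match. Both genes have another annotated promoter as well, which is not shown and to which the match does not extend here. Each line gives 100 bases of an annotated promoter in GRCm38.p6, Stat5a at chr11:100860383-100860482 on the plus strand and Stat5b at chr11:100822563-100822662 on the minus strand. Capitals mark the 4 runs of at least 8 bases that both hold in the same order, 48 bases in all, the longest of 16 bases.
Stat5a: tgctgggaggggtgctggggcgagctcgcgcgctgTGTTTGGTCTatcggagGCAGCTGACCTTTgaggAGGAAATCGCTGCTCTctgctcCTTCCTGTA
Stat5b: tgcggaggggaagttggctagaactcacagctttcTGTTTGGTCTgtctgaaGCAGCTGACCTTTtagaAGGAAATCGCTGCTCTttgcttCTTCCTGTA
These windows were compared after the scores had been seen, and the match describes the letters alone.

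Id4 (Entrez gene 15904, probe to NM_031166) codes for an inhibitor of DNA binding that pairs with helix-loop-helix factors. Its scores were -0.842, 0.826 and -0.618 in RU486 tumours 1 to 3, against -0.662, -0.339 and 1.63 in placebo tumours 1 to 3. Each group held 2 low scores and 1 high one. The difference was -0.42 (SE 0.888, 95% interval -2.89 to 2.04, adjusted p = 0.862 in limma), -0.94 without RU486 array 2 and 0.29 without placebo array 3.

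**Figure D3:**
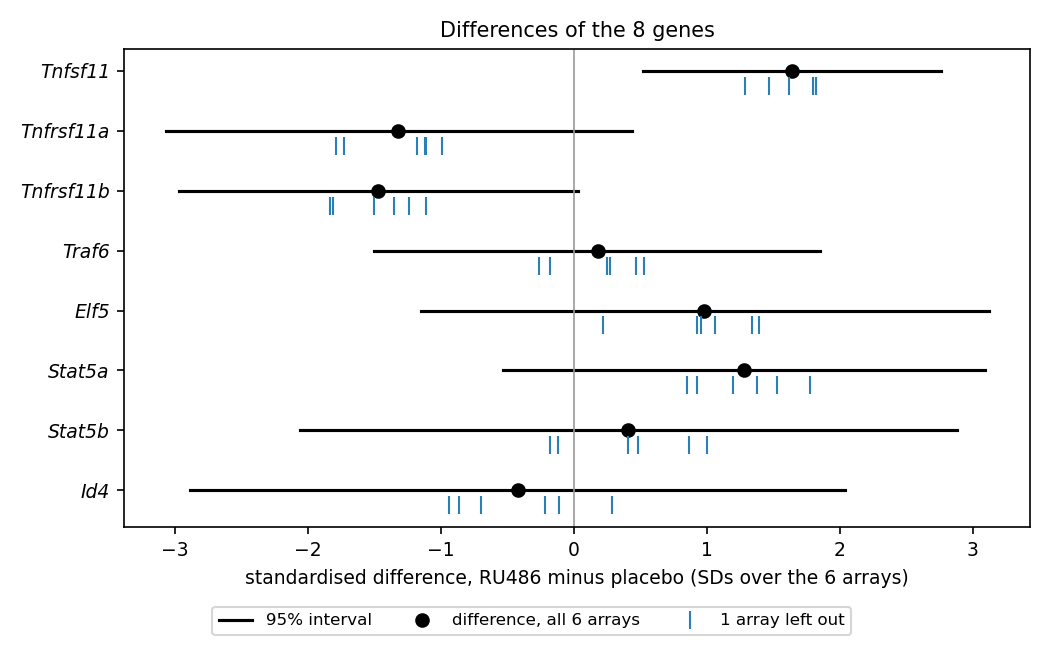
Standardised difference of each of the 8 genes, RU486 minus placebo (horizontal axis, in SDs over the 6 arrays), with its 95% interval from the ordinary statistic (black, which can reach past the limit of 1.83) and the 6 values with 1 array left out (blue ticks). The interval of Tnfsf11 lies above 0 (0.52 to 2.76), that of Tnfrsf11b ends at 0.03, and leave-out values of Traf6, Stat5b and Id4 fall on both sides of 0.

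Genes around the axis were taken from 10 lists of signalling partners, targets and relatives, of which 112 of 120 genes were measured. In these lists 0 genes passed an adjusted p of 0.05 in limma. At an unadjusted p of 0.05, 8 were lower (7.14%) and 3 higher (2.68%) in RU486 tumours, 9.82% in all, beside 12.3% of all genes, and the median difference was -0.08. Without RU486 array 2 these counts were 7 lower and 7 higher. Among all genes they went from 1547 to 1560 lower and from 1147 to 2302 higher. From each list the 2 genes of smallest unadjusted p under 0.05 in each direction are named, and further genes are added for their role in the axis, after their values were seen; none of these differences is a call after adjustment.

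Downstream of RANK, 28 of 31 listed genes were measured, with 13 lower, 15 higher and a median difference of 0.09; Traf3, Chuk and Nfkb1 were not analysed here. Traf5, another adaptor of the TRAF family, had scores of -1.03, -0.717 and -0.839 in RU486 tumours 1 to 3, against 0.279, 1.17 and 1.14 in placebo tumours 1 to 3. All 3 RU486 tumours were below all placebo tumours, with a difference of -1.72 (SE 0.305, adjusted p = 0.267). Sqstm1, which codes for the p62 scaffold that binds TRAF6, stood at 1.45 (SE 0.501, adjusted p = 0.39) as the mean of 2 probes, at 1.66 and 1.24. The other 26 genes had an unadjusted p of 0.05 or more, where 12.3% of all genes were under 0.05. Lgr4, another receptor of RANKL, stood at 0.59 (SE 0.863) with overlapping groups.

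Of the 15 genes that RANK induces in osteoclasts or that osteoclasts use, 10 were lower and 5 higher, with a median of -0.36. Oscar, the gene of an immunoglobulin-like receptor of osteoclasts, scored -0.417, -1.32 and -0.822 in RU486 tumours, against 0.522, 1.18 and 0.855 in placebo tumours, a difference of -1.71 (SE 0.324, adjusted p = 0.281). Fos, an AP-1 gene that many stimuli induce, stood at -1.54 (SE 0.488, adjusted p = 0.39). Acp5, which codes for tartrate-resistant acid phosphatase and is named after its value was seen, stood at -1.48 (adjusted p = 0.39). These 3 of 15 were lower at an unadjusted p of 0.05 in limma, beside 7.07% of all genes. The count was 0 with the replicate block and 1 without RU486 array 2, placebo array 2 or placebo array 3. Nfatc1, the main transcription factor of osteoclasts, stood at -0.26 (SE 0.855), and Ctsk, the cathepsin K gene, at -0.14 (SE 0.91), both with overlapping groups.

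Genes known to raise RANKL in other tissues had a median of -0.52 over 14 of 15 genes, with 9 lower and 5 higher, and Runx2 was not analysed here. Ptger2, a prostaglandin E2 receptor gene, was the 1 gene of 14 at an unadjusted p of 0.05, beside 12.3% of all genes. Its scores were -1.22, -0.229 and -0.779 in RU486 tumours, against 1.57, 0.0388 and 0.627 in placebo tumours, a difference of -1.49 (SE 0.529, adjusted p = 0.39). The vitamin D receptor gene Vdr stood at 0.05 (SE 0.913), the cytokine gene Il6 at 0.18 (SE 0.909) and Pth1r, the parathyroid hormone receptor gene, at -0.85 (SE 0.808). In the opposite direction to Ptger2, the cytokine gene Il17a stood at 1.47 (SE 0.538, adjusted p = 0.39 in limma). All its RU486 scores were above all its placebo scores.

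**Figure D4:**
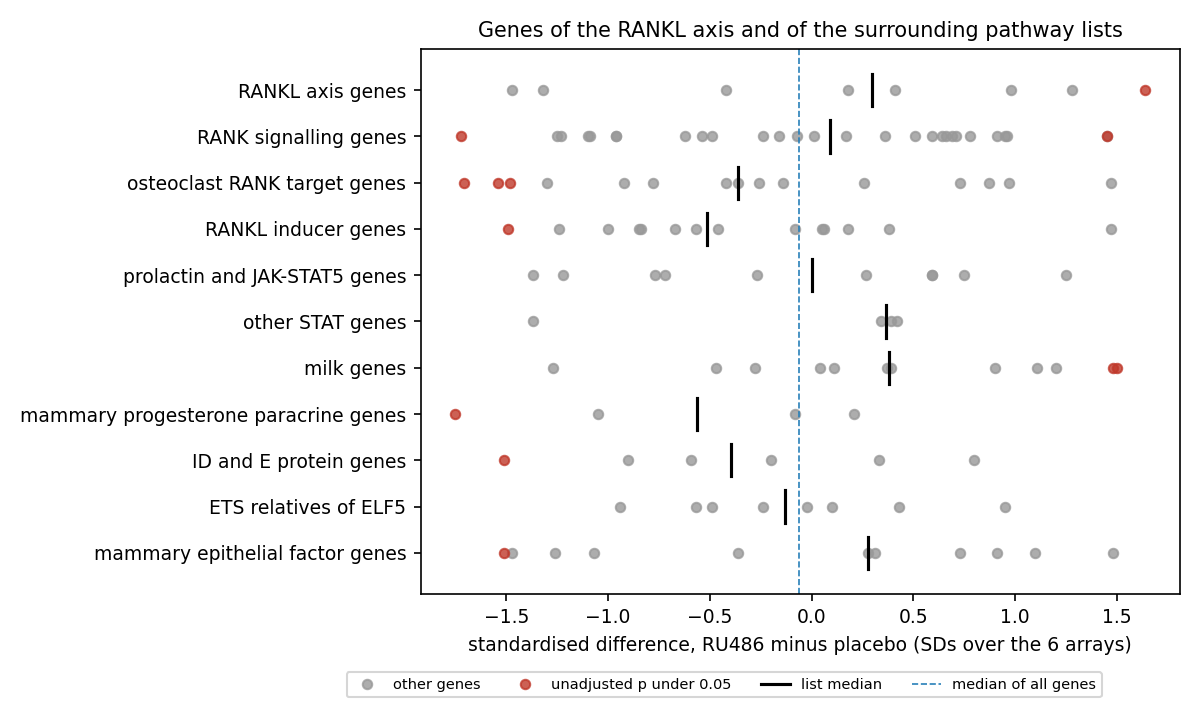
Standardised difference, RU486 minus placebo (horizontal axis, in SDs over the 6 arrays), of every measured gene in the RANKL axis and the 10 lists around it; red points have an unadjusted p under 0.05 in limma, black bars are list medians and the dashed line is the median of all genes, -0.06. Points of every list spread to both sides of 0, with list medians from -0.56 to 0.38.

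Around STAT5, 10 of 11 genes of prolactin and JAK signalling were measured, Prlr not being analysed here, and 0 of them had an unadjusted p under 0.05. Jak2, the kinase that phosphorylates STAT5, stood at -1.37 (SE 0.605, adjusted p = 0.426) with separated groups, and Cish, a feedback gene that STAT5 induces, at 1.25 (SE 0.667, adjusted p = 0.517) with overlapping groups. Among 12 milk genes of the secretory mammary epithelium, 9 had positive and 3 negative differences, with a median of 0.38. At an unadjusted p of 0.05 in limma, 2 were higher and 0 lower, beside 5.24% and 7.07% of all genes. The higher count was 0 with array medians set equal, after quantile normalization, and with any array but RU486 array 2 left out. The casein gene Csn1s2a scored 1.18, -0.124 and 1.19 in RU486 tumours, against -0.245, -0.775 and -1.23 in placebo tumours, a difference of 1.5 (SE 0.521, adjusted p = 0.39). Csn1s1, another casein gene, stood at 1.48 (SE 0.533, adjusted p = 0.39), and the whey protein genes Wap and Lalba at 1.20 (SE 0.689) and -1.27 (SE 0.657) with overlapping groups. The list of other STAT genes had 0 of 4 and that of ETS relatives of ELF5 0 of 8 at an unadjusted p of 0.05.

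Of the other genes that progesterone induces in mammary epithelium, 3 of 4 had negative differences, with Areg and Calca not analysed here. Ccnd1, the cyclin D1 gene, was the 1 gene at an unadjusted p of 0.05, with scores of -0.86, -0.834 and -0.925 in RU486 tumours, against 0.341, 1.12 and 1.15 in placebo tumours (difference -1.75, SE 0.268, adjusted p = 0.247). Wnt4, a WNT ligand gene, stood at -1.05 (adjusted p = 0.615), Rspo1 at -0.08 and Adamts18 at 0.21, all with overlapping groups. In the ID and E protein list, 1 of 6 genes was at that level: Id1, a relative of Id4, at -1.51 (SE 0.513, adjusted p = 0.39), with all RU486 scores below all placebo scores, while Id2 and Id3 stood at -0.20 (SE 0.907) and -0.90 (SE 0.795). In the list of mammary epithelial factors, 1 of 11 was, Cited1, a transcriptional coregulator gene, at -1.51 (SE 0.514, adjusted p = 0.39). Of all genes, 7.07% were lower at that level. Brca1, whose expression ID4 is known to repress, stood at -1.26 (SE 0.662, adjusted p = 0.51).

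The genes whose scores most resembled those of the ligand and its receptors were found by the root mean square difference over the 6 arrays. For Tnfsf11 they were Upp2 (0.0437), 1700108F19Rik (0.0457) and Krtap12-1 (0.0535), and 94 genes lay within 0.3, where the median of all genes was 1.26. Cthrc1 (0.0667), Slc30a9 (0.131) and Pigt (0.136) were the nearest to Tnfrsf11a, with 78 genes within 0.3. Nearest to Tnfrsf11b were Dlgap5 (0.0557), Ifrd2 (0.116) and Pappa2 (0.12), with 137 genes within 0.3. With 6 arrays many genes take nearly the same pattern, and these distances are a description.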

How the data were processed

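Tumour RNA of 3 RU486 and 3 placebo samples was measured on single-colour (Cy3) Agilent arrays, grouped by their titles. The authors deposited 1 table of scores, made with Partek per the submitters' processing notes; the sources used here give no version, background correction, normalization or filter. The deposited scores of each probe average 0 with an SD of 1 over the 6 arrays, within rounding, so brightness and fold changes cannot be recovered. Whether log or linear intensities were scaled is unknown, and higher scores were read as brighter probes. Array medians ran from -0.384 to 0.212, and 0 pairs of arrays were identical. The number of arrays limits the precision.

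Probes were named from the platform annotation (24903 with 1 symbol, 0 with several, 13029 with none), which can be old; 24627 matched RefSeq genes of GRCm38.p6 by Entrez ID, and 0 symbols changed. Probes of 1 gene were averaged. Genes were fitted with limma 3.58.1 in R 4.3.3 by its ordinary statistic (4 residual degrees of freedom), since moderation across scaled probes (eBayes, an alternative) loses its basis. P-values are two-sided, adjusted by Benjamini-Hochberg over 21874 genes, with thresholds of 0.05. The fit was tested on simulated data. Alternatives were eBayes, array centring, quantile normalization, array weights, a replicate block, other treatments of probes, and each array left out. Low-signal filters could not be applied to scores. The 8 genes and the lists were chosen with earlier results of these data known. Named genes are the 8, the 2 list genes of smallest unadjusted p per direction among those under 0.05, the first marker of a list under 0.05, and the 3 genes nearest in score to Tnfsf11, Tnfrsf11a and Tnfrsf11b. Further list genes were named for their role, after their values were seen.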

Additional observations from a re-analysis of the deposited data

How the results depend on the processing

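Over the alternatives run, 0 of the 8 genes and 0 list genes passed an adjusted p of 0.05 in limma. Tnfsf11 stayed positive (1.29 to 1.82, adjusted p from 0.0803 when arrays were weighted to 0.727), as did Elf5 and Stat5a, and Tnfrsf11a and Tnfrsf11b stayed negative. Leaving out 1 array at a time gave -0.26 to 0.53 for Traf6, -0.18 to 1.00 for Stat5b and -0.94 to 0.29 for Id4, so their signs turned, as they did when arrays were weighted for Traf6 (-0.56) and Stat5b (-0.15) and at the AK009110 probe of Traf6 (-0.59). Of the 8 genes, the number at an unadjusted p of 0.05 was 1 higher and 0 lower on all arrays. It was 0 higher with the replicate block, and 1 lower with array medians set equal or quantile normalization. Leaving out 1 array gave 0 to 2 higher and 0 to 2 lower.

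Among all genes, 1 passed an adjusted p of 0.05 (7 with array weights, 2 probe by probe, 0 with eBayes, equal medians, quantile normalization or the replicate block, and 1 to 3 with 1 array left out). At an unadjusted p of 0.05, 1147 were higher and 1547 lower. The higher count was 679 with equal medians, 597 after quantile normalization, 2749 with array weights (2900 lower), 419 with the replicate block (1115 lower), and 364 to 2302 with 1 array left out (1004 to 1963 lower). The list genes numbered 3 higher and 8 lower. The higher count was 1 with eBayes, equal medians, quantile normalization or the replicate block (4 lower), 8 with array weights (13 lower), 5 probe by probe, and 0 to 7 with 1 array left out (3 to 8 lower). Equal medians shifted the median difference of all genes by 0.12. The cause of these moves was not tested. Same-numbered arrays were not taken as pairs in the main fit. Their deviations from the group means had correlations across genes of 0.254, 0.0539 and -0.272. RU486 array 2 correlated best with placebo array 3 (0.357). Deviations within a group cancel out, so these correlations depend on each other and cannot settle whether the numbers mark pairs.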

Other observations

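The score of Tnfsf11 minus that of Tnfrsf11b, computed after both had been seen and not tested, was 1.48, 1.54 and 1.64 in RU486 tumours 1 to 3, against -1.13, -0.91 and -2.62 in placebo tumours 1 to 3. It is a difference between scores of 2 probes, not a ratio of RANKL to OPG transcripts. The means were 1.55 ± 0.0821 in RU486 and -1.55 ± 0.931 in placebo tumours (SD, n = 3 each), and the score of Tnfsf11 itself was 1.51 in RU486 tumour 2 and at most 0.493 in the other 2. The score of Tnfsf11 minus that of Tnfrsf11a was 1.57, 1.36 and 1.51 in RU486 tumours, against -1.77, -0.56 and -2.1 in placebo tumours. RU486 tumour 2 thus had the highest score of its group for the ligand and for both receptors.

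Calcr, the calcitonin receptor gene, which osteoclasts and mammary cells use, had scores of 0.965, -0.225 and 1.47 in RU486 tumours, against -0.366, -0.77 and -1.07 in placebo tumours. Its difference was 1.47 (SE 0.541, adjusted p = 0.39 in limma), and the groups did not overlap. The casein genes Csn1s1 and Csn1s2a had the same order of groups, with their lowest RU486 score on array 2 as well. Il17a, an interleukin gene, and Foxa1, of the mammary epithelial factor list, had nearly the same scores as Csn1s2a. Those of Il17a were 1.21, -0.181 and 1.18 in RU486 tumours, against -0.23, -0.78 and -1.2 in placebo tumours. The order was thus not particular to osteoclast or milk genes. Csn2, the beta-casein gene, peaked instead on RU486 array 2, at 1.99, beside -0.196 and -0.132 on RU486 arrays 1 and 3 and -0.37, -0.554 and -0.737 on the placebo arrays. These genes were named after their values were seen.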
